A study of Mus musculus with 1646 samples.

Results

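The genes described here are 10 forkhead transcription factors, *Foxl1*, *Foxf1*, *Foxf2*, *Foxs1*, *Foxc1*, *Foxc2*, *Foxp1*, *Foxp2*, *Foxo1* and *Foxo3*, measured in single mesenchymal cells of the mouse colon. They were chosen by name: each symbol was matched through GENCODE vM21 to 1 row of the colon count table, which gave 10 of 46517 genes and 10 of the 44 forkhead genes in the table. The study sorted CD31-negative single cells from the colon of male mice aged 10 to 20 weeks, all backcrossed to C57Bl6/J, and copied the RNA of each cell into full-length cDNA (SmartSeq2) with no molecular identifiers. Of the 1646 cells, 761 came from PdgfrbGFP, 567 from Acta2GFP and 91 from Cspg4dsRED mice and the rest from PdgfraGFP mice, each reporter line making a fluorescent protein under the control of the gene in its name. PdgfrbGFP, Acta2GFP and Cspg4dsRED are transgenes, whereas PdgfraGFP is carried at the *Pdgfra* locus, and the methods also mention combinations of strains. For Acta2GFP mice elastase was added to the enzyme mix, and the authors removed cells with neither *Pdgfra* nor *Pdgfrb* and cells that looked endothelial or immune.

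Forkhead proteins bind DNA through a winged-helix domain, in which the third helix lies in the major groove and reads the target sequence. In the gut, *Foxf1*, *Foxf2* and *Foxl1* are genes of the mesenchyme that respond to Hedgehog ligands from the epithelium, and Foxl1-positive mesenchymal cells are known as a support of the epithelial stem cell niche. The FOXC factors act in vessel wall and lymphatic development, the FOXP factors are mostly repressors that bind as dimers, and the FOXO factors are held out of the nucleus when insulin signalling is active.

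Since the reads were single and 50 bases long, whether members can be told apart depends on how far their sequences differ, and the most conserved stretch is the recognition helix. The 30 bases that code for it are shown for 7 members 5′ to 3′ from the GENCODE vM21 transcripts (GRCm38), with capitals at bases that differ from *Foxl1*:
Foxl1: tggcagaacagcatccgccacaacctgtcg
Foxf1: tggAagaacTCcGtGcgccacaacctgtcg
Foxf2: tggAagaacTCcGtGcgccacaacctCtcg
Foxs1: tggcaAaacagcatccgccaTaacctgtcT
Foxc1: tggcagaacagcatAcgGcacaacctCtcg
Foxc2: tggcagaacagcatccgccacaacctgtcA
Foxo3: tggAagaacTCcatccgGcacaacctgtcC
*Foxc2* differed from *Foxl1* at 1 of the 30 bases, *Foxs1* and *Foxc1* at 3, *Foxf1* and *Foxo3* at 5 and *Foxf2* at 6. Over whole transcripts few stretches of 50 bases were shared between forkhead genes: *Foxc1* and *Foxc2* each had 4, *Foxp2* had 2, and the other 7 members had 0. Sharing with any other gene reached 6.8% of the 50-base stretches in *Foxo1* and was at most 2.42% in the other members.

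The clusters are the authors' deposited annotation, and their positions along the crypt are those of the study. The fibroblasts comprise cluster 7 (base of the crypt, 13.5% of the cells), cluster 5 (base to middle, 25.8%), cluster 1 (middle, 29.3%), cluster 6 (middle to apex, 2.73% or 45 cells) and cluster 2 (apex, 7.96%). The mural cells comprise pericytes (8.63%), vascular smooth muscle cells (SMC, 8.57%) and interstitial SMC (3.4% or 56 cells). A level is the count scaled to 500000 per cell, averaged over the cells of a cluster in 1 line and then over the lines with at least 10 such cells. The labels name no mouse, so the line is the replicate, and the spread between lines includes differences of strain and dissociation. Raw counts summed per line were tested with edgeR, and because the clusters had been drawn from the same counts the tests describe them and are not independent of how they were drawn.

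The cells held between 47598 and 1494292 counts on genes (median 248628), and the cells of the Cspg4dsRED line (median 113721) and the interstitial SMC (median 118251.5) were the shallowest. The summed level of *Pdgfra*, *Col1a1*, *Lum* and *Dcn* was 2733 to 7777 in the fibroblast clusters and 112.1 to 1690 in the mural clusters. The summed level of *Rgs5*, *Notch3*, *Mcam* and *Cspg4* was 1698 to 5672 in pericytes and vascular SMC but 291.8 in interstitial SMC, where *Notch3* was at 0.229, while 5 smooth muscle genes together reached 9573 there. The lists for other cell types were low, with sums per line of at most 2.79 for 4 immune genes, 34.5 for 4 epithelial genes and 4.46 for 3 glial genes, and both mesothelial genes were at 0 in every cluster. The sum of *Tnc*, *Il1rl1*, *Ptgs2* and *Lama5*, genes of the apex, was 3666 to 3822 in cluster 2 and at most 587.1 in the other clusters, and *Cd34* was at 41.3 there against 595.1 to 1293 in clusters 1, 5 and 7. The sum of 5 endothelial genes reached 228.2 in cluster 7. There *Tek* had a mean of 179.5, *Pecam1* 5.8, *Cldn5* 1.7, *Kdr* 1.1 and *Cdh5* 0.236. The sum of *Kit* and *Ano1* reached 447.2 in pericytes, 363.8 in vascular SMC and 219.6 in apex fibroblasts, nearly all of it *Ano1* (*Kit* means were 0.026, 8.85 and 0.503). The part of these genes in the results was not tested.

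**Figure D1:**
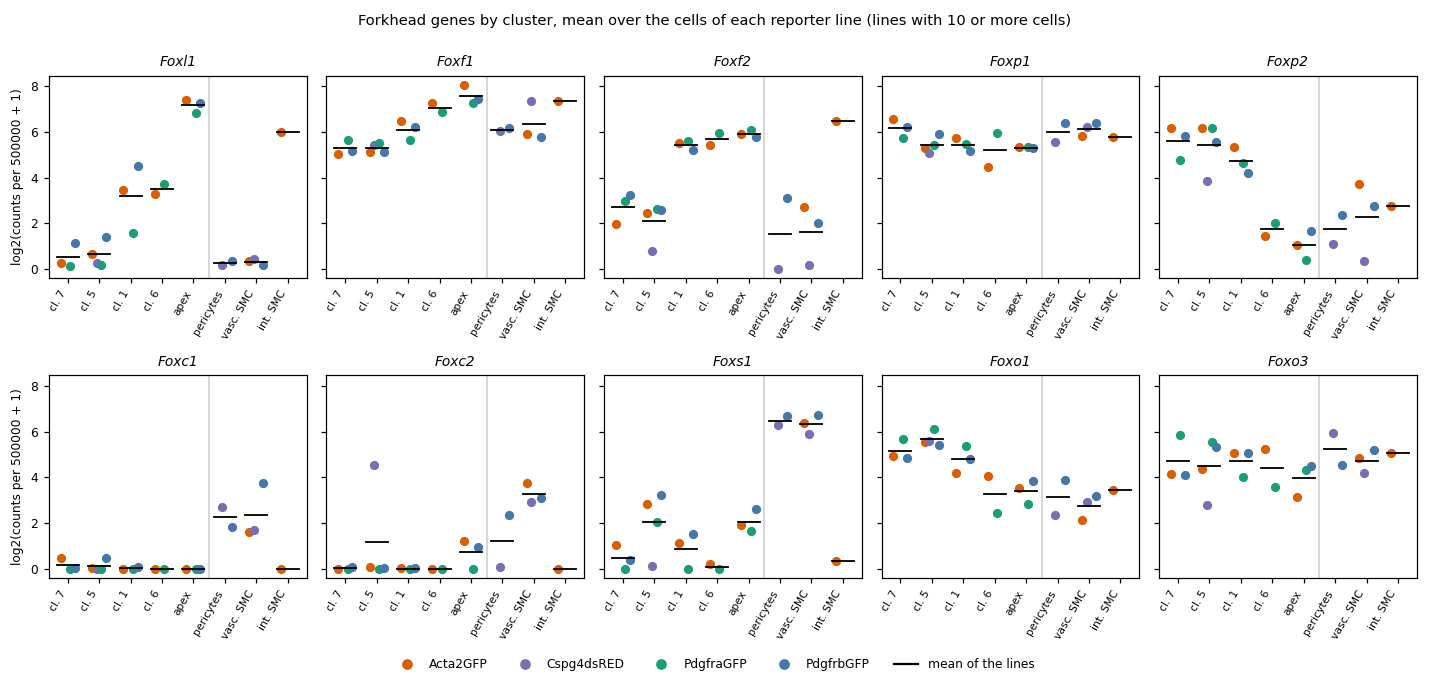
Level of each forkhead gene (vertical axis, log2 of counts per 500000 plus 1) in the 5 fibroblast clusters, left of the grey line, and the 3 mural clusters, right of it. Each point is the mean over the cells of 1 reporter line with at least 10 cells of the cluster, and black bars are the means of the points on this scale. *Foxl1* peaks at the apex (111.7 to 170 counts per 500000) and in interstitial SMC (62.6), *Foxs1* in pericytes and vascular SMC (58.1 to 106.2), and *Foxp2* is lowest at the apex (0.338 to 2.23).

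*Foxl1*, on chromosome 8 from 121127940 to 121130644 of GRCm38, was highest in apex fibroblasts, where it had 170 counts per 500000 in Acta2GFP, 155.6 in PdgfrbGFP and 111.7 in PdgfraGFP, a mean of 145.8 ± 30.4 (SD, n = 3 lines). Interstitial SMC followed with 62.6 in Acta2GFP, the only line with enough of these cells. Cluster 1 stood at 22, 10 and 2.01 in PdgfrbGFP, Acta2GFP and PdgfraGFP, and cluster 6 stood at 12.3 and 8.88 in PdgfraGFP and Acta2GFP, so these clusters were not separated. Clusters 7 and 5, pericytes and vascular SMC had means of 0.503, 0.661, 0.214 and 0.263, with no line above 1.69. The 9 cluster 6 cells of PdgfrbGFP, too few for a line mean, had 109.8 and raised the mean over all 45 cells to 31.

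The shares of cells with *Foxl1* were highest in the same clusters as the levels. At least 1 count was found in 83.2% of apex fibroblasts (95% Clopper-Pearson interval 75.7 to 89.2; median depth 261785) and in 44.6% of interstitial SMC. In pericytes (median depth 209805) and vascular SMC (359677), where *Foxl1* was near 0, the shares were 4.23% and 6.38%. In clusters 7, 5 and 1 they were 21.5%, 25.9% and 30%, but the median count of the cells with a count was only 1, 1 and 2, and at least 10 counts were found in 0 cells of cluster 7 (95% interval up to 1.64%), 3 of cluster 5 (0.706%) and 37 of cluster 1 (7.66%), against 86 apex cells (65.6%) and 19 interstitial SMC (33.9%). Cluster 6 had larger shares than cluster 1 (35.6% with a count and 20% with at least 10), although its mean level over lines was no higher (10.6 against 11.3). After thinning each cell to 50000 counts the shares were 74.8% at the apex, 40.7% in interstitial SMC, and 26.7%, 16.6%, 8.25% and 5.45% in clusters 6, 1, 5 and 7. Among cells of clusters 7, 5, 4 and 3, a *Foxl1* count was found in 29.7% of 380 cells whose plate row or column held more *Foxl1* counts than the plate's median, and in 10.9% of 551 other cells, with median depths of 302090 and 249761. A low *Foxl1* count in these clusters therefore went with counts in neighbouring wells, and the part of this in the low shares was not tested.

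*Foxf1* lies on the same chromosome from 121084386 to 121088144, and its mean was at least 38.7 in every cluster. It was highest in apex fibroblasts, with 267.2 in Acta2GFP, 174.9 in PdgfrbGFP and 151.9 in PdgfraGFP (SD 61.1, n = 3 lines). Interstitial SMC (165.4) and cluster 6 (152.7 and 116.9 in Acta2GFP and PdgfraGFP) came next and lay within the apex spread or just below it. Vascular SMC spanned 54.8 in PdgfrbGFP to 162.6 in Cspg4dsRED, so their mean of 92.1 did not separate from that of pericytes (67.9) or cluster 1 (70). Clusters 7 and 5 were lowest, at 38.8 ± 9.38 (SD, n = 3 lines) and 38.7 ± 5.82 (SD, n = 4 lines), and the highest line of cluster 7 (49.5) just overlapped with the lowest of cluster 1 (48.6). At least 10 counts were found in 79.4% of apex cells, 66.1% of interstitial SMC and 28.7% to 53.3% of the other clusters.

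*Foxf2*, on chromosome 13 from 31625816 to 31631403, separated the clusters in another way. Cluster 1 was already high, with 47.1 in PdgfraGFP, 44.8 in Acta2GFP and 36.2 in PdgfrbGFP. Cluster 6 (41.8 and 61.6) overlapped with it, and apex fibroblasts had 66.5, 59.6 and 54 in PdgfraGFP, Acta2GFP and PdgfrbGFP, above every line of cluster 1. The single interstitial SMC value, 87.6, was the highest. Clusters 7 and 5, pericytes and vascular SMC had means of 6.09, 3.87, 3.85 and 2.92, and no line of them exceeded 8.48. For *Foxl1* and *Foxf2* alike every line of cluster 1 was above every line of cluster 5, although the lowest cluster 1 value of *Foxl1* (2.01 in PdgfraGFP against at most 1.69) had 79.4% of its level from 1 cell, and a further gap between cluster 6 and the apex was seen, in lines with at least 10 cells, for *Foxl1* alone of the pair.

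Per kilobase of exon, the scale on which genes can be compared, apex fibroblasts held 82 of *Foxf1*, 53.9 of *Foxl1* and 25.4 of *Foxf2*, and interstitial SMC held 68.5, 23.1 and 37.1. *Foxl1* was therefore above *Foxf2* at the apex and below it in interstitial SMC.

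To ask which members set apex fibroblasts apart from those deeper along the crypt, apex sums of 3 lines were compared with sums of clusters 1, 5 and 7 of 4 lines. Of 15893 genes tested, 7.26% passed an adjusted p of 0.05 (3.5% higher and 3.76% lower at the apex). Of the 10 members, 9 had enough counts to be tested (*Foxc1* did not), and 5 passed, 3 higher and 2 lower. The study had named *Foxl1* as an apex gene on these cells, so its call is not independent evidence. For *Foxl1* the study also reported RNAscope in situ hybridization in tissue.

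*Foxl1* had 0.982 to 10.6 counts per 500000 in the lines of clusters 1, 5 and 7, below the lowest apex line, and was 42.5-fold higher at the apex (log2 fold change 5.41 ± 0.71 SE, edgeR adjusted p = 0.0023). *Foxf1* stood at 43.4 to 55.4 in the deeper clusters and rose by 2.07 ± 0.31 on the log2 scale (adjusted p = 0.0048). *Foxf2* stood at 10.4 to 24.2 and rose by 1.74 ± 0.33 (adjusted p = 0.014). All 3 were higher at the apex in 3 of 3 lines that held both groups, and the line values did not overlap.

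*Foxp2* and *Foxo1* ran the other way. *Foxp2*, on chromosome 6 from 14901349 to 15441977, had 1.09, 0.338 and 2.23 at the apex in Acta2GFP, PdgfraGFP and PdgfrbGFP, against 12.5 to 58.4 in the deeper clusters (log2 fold change -4.66 ± 0.78, edgeR adjusted p = 0.0079). *Foxo1*, on chromosome 3 from 52268336 to 52353221, had 10.7, 6.2 and 13.5 against 29.5 to 54.3 (log2 fold change -1.76 ± 0.36, adjusted p = 0.019). Both were lower in 3 of 3 lines without overlap. *Foxp1* (-0.30, edgeR adjusted p = 0.688; the lines did not overlap), *Foxo3* (-0.46, adjusted p = 0.712), *Foxs1* (1.78 ± 1.22, adjusted p = 0.505) and *Foxc2* (-0.59 ± 2.36, adjusted p = 0.933) did not pass.

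Leaving out Acta2GFP ended all 5 calls, with *Foxl1* at 5.03 (edgeR adjusted p = 0.058), *Foxf1* at 1.64 (0.054), *Foxf2* at 1.41 (0.202), *Foxp2* at -4.42 (0.104) and *Foxo1* at -1.77 (0.162). With the reporter line as a block *Foxf2* (1.60, edgeR adjusted p = 0.05) and *Foxo1* (-1.76, adjusted p = 0.053) did not pass. Leaving out PdgfraGFP or PdgfrbGFP ended those of *Foxf2* (adjusted p 0.053 and 0.051) and *Foxo1* (0.131 and 0.085). Of 16 genes known to respond to tissue dissociation, 14 were also higher at the apex, with a median log2 fold change of 1.89 against 0.00 for all genes, and their part in the members' differences was not tested.

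**Figure D2:**
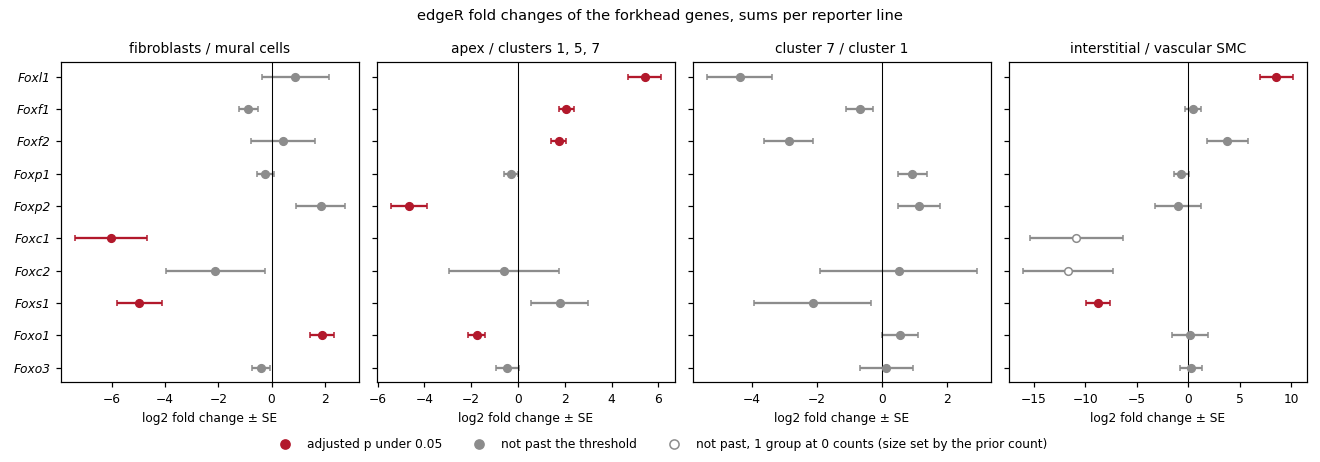
Log2 fold change (horizontal axis) with its SE of each forkhead gene in 4 comparisons, from edgeR on sums per reporter line, with red for an adjusted p under 0.05. Open circles mark genes with 0 counts in 1 group, whose size is set by the prior count and is no estimate. At the apex *Foxl1* (5.41), *Foxf1* (2.07) and *Foxf2* (1.74) lie to the right and *Foxp2* (-4.66) and *Foxo1* (-1.76) to the left, and the axes differ between panels.

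Along the deeper fibroblasts, cluster 7 was set against cluster 1 in a fit of all 5 fibroblast clusters. Here 0.909% of 18924 genes passed (0.576% lower in cluster 7) and 0 of 9 members tested did, although 2 had an unadjusted p under 0.05 and DESeq2 called 2. *Foxl1* had 0.0989 to 1.2 in cluster 7 and 2.01 to 22 in cluster 1 (log2 fold change -4.39 ± 1.01, edgeR adjusted p = 0.056). *Foxf2* had 2.89 to 8.48 against 36.2 to 47.1 (-2.88 ± 0.75, adjusted p = 0.104). Neither overlapped between the clusters, which for *Foxl1* rested on the single PdgfraGFP cell that held 79.4% of that line's cluster 1 level. Both were lower in cluster 7 in 3 of 3 lines, and with the reporter line as a block both passed, *Foxl1* at -4.51 (adjusted p = 0.017) and *Foxf2* at -2.93 (adjusted p = 0.032). *Foxf2* also passed without Cspg4dsRED (adjusted p = 0.016). *Foxp1*, a repressor known from heart and lymphocyte development, had 52.9 to 94.5 in cluster 7 and 34.6 to 51.8 in cluster 1, which did not overlap (0.93 ± 0.44, adjusted p = 0.512). *Foxf1* overlapped (-0.69 ± 0.41, adjusted p = 0.673).

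Cluster 6 and the apex share the highest fibroblast levels of *Foxf1* and *Foxf2* and the lowest of *Foxp2*. Against the apex, 2.1% of genes passed (0.576% higher and 1.52% lower in cluster 6) and 0 of 9 members did in edgeR (2 had an unadjusted p under 0.05, and DESeq2 called 2), in the same fit and with the apex sums of the comparison above. The median of all genes was -0.22. *Foxl1* came closest, at 8.88 and 12.3 in cluster 6 against 111.7 to 170 (log2 fold change -3.88 ± 1.16, adjusted p = 0.095). The 9 PdgfrbGFP cells of cluster 6, left out for their number, stood at 109.8, next to the lowest apex line, and with sums of at least 3 cells the log2 fold change was -1.22 (adjusted p = 0.676). *Foxf1* overlapped (-0.81 ± 0.46, adjusted p = 0.396). The dissociation genes differed in this comparison too: 14 of 16 were lower in cluster 6, with a median of -3.42. The summed level of the 5 smooth muscle genes ran the other way, with 590.6 and 1779 in the lines of cluster 6 against 102.1 to 320.2 at the apex. Among these genes *Tagln* (4.59, edgeR adjusted p = 0.132), *Cnn1* (0.96, adjusted p = 0.859) and *Des* (-0.50, adjusted p = 0.916) did not pass. *Abcc9*, a channel subunit gene of pericytes, was higher in cluster 6 (5.58, adjusted p = 0.047), whereas the pericyte genes *Kcnj8* (2.42, adjusted p = 0.261) and *Rgs5* (-0.89) did not pass. The part of either list was not tested.

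The mural cells were marked by *Foxs1*, a gene of blood vessel mural cells and of the neural crest lineage, on chromosome 2 from 152931898 to 152933208. Pericytes had 102.1 counts per 500000 in PdgfrbGFP and 77.3 in Cspg4dsRED, and vascular SMC had 106.2 in PdgfrbGFP, 82.8 in Acta2GFP and 58.1 in Cspg4dsRED. The means of 89.7 ± 17.5 (SD, n = 2 lines) and 82.3 ± 24 (SD, n = 3 lines) overlapped. Fibroblast clusters had at most 8.44 in any line, and interstitial SMC had 0.272. Per kilobase *Foxs1* reached 68.4 in pericytes and 62.8 in vascular SMC.

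At least 10 *Foxs1* counts were found in 29.6% of pericytes, 48.2% of vascular SMC, 1.84% of fibroblasts and 0 of 56 interstitial SMC (95% interval up to 6.38%). At least 1 count was found in 55.6%, 61.7%, 16.3% and 5.36%. In fibroblasts and interstitial SMC together the share with a count was 31.6% of 602 cells whose plate row or column was rich in *Foxs1* counts, and 3.42% of 761 others, at like median depths of 247507 and 248587. Its part in the fibroblast levels was not tested.

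*Foxc1*, on chromosome 13 from 31806633 to 31812476, and *Foxc2*, on chromosome 8 from 121116171 to 121118895, were low and came from few cells. *Foxc1* had 12.4 in vascular SMC of PdgfrbGFP and 2.26 and 2.08 in those of Cspg4dsRED and Acta2GFP, and 5.44 and 2.56 in pericytes of Cspg4dsRED and PdgfrbGFP. No fibroblast cluster exceeded 0.399 in any line, and apex fibroblasts had 0 counts in all cells, which by 3 counts allows a share of cells with a count of up to 2.29% (95% interval up to 2.78%). *Foxc2* had 12.6, 7.69 and 6.56 in vascular SMC of Acta2GFP, PdgfrbGFP and Cspg4dsRED. It had 4.17 and 0.0507 in pericytes of PdgfrbGFP and Cspg4dsRED, below every vascular SMC line. In fibroblasts its highest value was 22.3 in cluster 5 of Cspg4dsRED, where 2 of 13 cells held all counts and 1 of them 72.8% of the level, against at most 0.0687 in the other lines. Both genes had 0 counts in 56 interstitial SMC. Among vascular SMC 13 (9.22%) had at least 10 counts of *Foxc1* and 8 (5.67%) of *Foxc2*, with 0 cells in common, and 9 of the 13 and 5 of the 8 also had at least 10 of *Foxs1*, which 48.2% of all vascular SMC had.

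Fibroblasts (4 lines) were compared with mural cells (3 lines) to ask which members divide the main classes. Of 19173 genes, 6.57% passed (3.21% higher and 3.36% lower in fibroblasts), and 3 of 10 members did. *Foxs1* had 0.138 to 4.33 in fibroblasts and 36.4 to 101.7 in mural cells and was 31.1-fold lower in fibroblasts (log2 fold change -4.96 ± 0.86, edgeR adjusted p = 0.0091). *Foxc1* had 0.00217 to 0.319 and 0.718 to 6.76 and was also lower (-6.03 ± 1.36, adjusted p = 0.029). *Foxo1* had 27.5 to 36.8 and 5.38 to 10.9 and was 3.73-fold higher in fibroblasts (1.90 ± 0.44, adjusted p = 0.031). For all 3 the direction held in 3 of 3 lines and the line values did not overlap. Of the 16 dissociation genes 3 were also lower in fibroblasts (*Btg2*, *Atf3* and *Zfp36*), with a list median of -0.64, and their part was not tested.

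With the reporter line as a block *Foxs1* kept its call (adjusted p = 0.041), whereas *Foxc1* (-4.93, adjusted p = 0.163) and *Foxo1* (2.07, adjusted p = 0.099) lost theirs. Leaving out any 1 line ended the calls of *Foxc1* (edgeR adjusted p 0.052 to 0.198) and *Foxo1* (0.053 to 0.20), and leaving out Acta2GFP also ended that of *Foxs1* (-5.02, adjusted p = 0.057).

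The remaining 7 members did not pass. *Foxl1* had 14.5 to 29.4 in fibroblasts, and 38.8, 0.737 and 0.251 in mural cells of Acta2GFP, PdgfrbGFP and Cspg4dsRED (log2 fold change 0.89 ± 1.26, edgeR adjusted p = 0.795). The high Acta2GFP value came with 52 interstitial SMC among its 84 mural cells, and without that line the log2 fold change was 4.90 (adjusted p = 0.078). *Foxf2* showed the same pattern, with 56.2 in mural cells of Acta2GFP and 6.75 and 0.0701 in the others (0.43 ± 1.19, adjusted p = 0.909). *Foxp2* did not overlap, with 11.6 to 52 in fibroblasts and 0.728 to 7.82 in mural cells (1.84 ± 0.92, adjusted p = 0.312). *Foxf1* (-0.88 ± 0.36, adjusted p = 0.202), *Foxp1* (-0.23 ± 0.31, adjusted p = 0.779), *Foxo3* (-0.40 ± 0.33, adjusted p = 0.592) and *Foxc2* (-2.11 ± 1.85, adjusted p = 0.621) also did not pass. The *Foxp1* lines did not overlap either, with means of 50.4 in fibroblasts and 67 in mural cells.

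Within the mural cells, the 3 clusters shared 1 fit, so both comparisons below share the vascular SMC sums. Pericytes against vascular SMC had 0 of 10 members past the threshold, of which 0 had an unadjusted p under 0.05 and DESeq2 called 0, against 0.668% of 16328 genes in edgeR (0.404% lower in pericytes). Of the 16 dissociation genes 5 were lower in pericytes, with a median of -2.07. *Foxs1* differed by -0.29 ± 0.54 (adjusted p = 0.936), opposite in direction to the mean levels (89.7 in pericytes and 82.3 in vascular SMC) and to the value with sums of at least 3 cells (1.34), and *Foxc2* by -2.32 ± 1.75 (adjusted p = 0.695).

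Interstitial SMC differed from vascular SMC in 1.04% of genes (0.398% higher and 0.643% lower) and in 2 of 10 members. The interstitial cells gave a single sum, of 52 Acta2GFP cells, which has no spread of its own and is assumed to vary like the others, so a p here rests on the spread of the other clusters, and the median of all genes was -0.31. *Foxl1* was at 62.6 against 0.129 to 0.368 in vascular SMC (log2 fold change 8.57 ± 1.64, edgeR adjusted p = 0.029), and with the reporter line as a block it did not pass (8.14, adjusted p = 0.609). *Foxs1* was at 0.272 against 58.1 to 106.2 (-8.74 ± 1.19, adjusted p = 0.0049; 0.01 with the block). *Foxf2*, at 87.6 against 0.147 to 5.57, did not pass (3.81 ± 1.99, adjusted p = 0.652) but did without Cspg4dsRED (3.22, adjusted p = 0.027), nor did *Foxf1* (0.45 ± 0.77, adjusted p = 0.967). Compared with apex fibroblasts, interstitial SMC had *Foxf1* within the range of the apex lines, *Foxf2* above it and *Foxl1* below it.

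**Figure D3:**
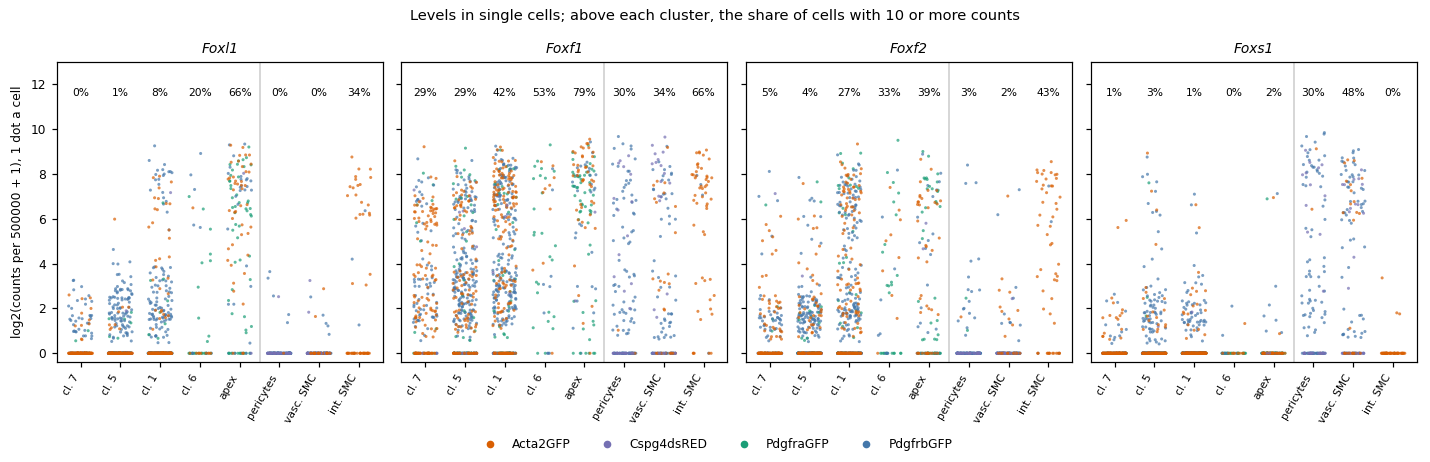
Level in each cell (vertical axis, log2 of counts per 500000 plus 1, with cells spread sideways at random), coloured by reporter line, for 4 genes in the 8 clusters. The number above a cluster is the share of its cells with at least 10 counts. For *Foxl1* it is 65.6% at the apex and 33.9% in interstitial SMC, and for *Foxs1* 29.6% in pericytes and 48.2% in vascular SMC. The shares are on raw counts, and the clusters differ in depth. Cells with low *Foxl1* levels are seen in clusters 7, 5 and 1.

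Cell by cell, the Foxl1-high interstitial SMC and the other interstitial SMC both had high levels of *Myh11* and *Hhip*. The 19 cells with at least 10 *Foxl1* counts had medians of 2028 for *Myh11*, the smooth muscle myosin, 1373 for the Hedgehog antagonist *Hhip*, 4.66 for *Pdgfra* and 2.89 for *Wnt5a*. The 37 others had 1807, 1219, 7.65 and 3.17, at like median totals of 121091 against 118235 counts. Other medians differed more, with *Foxf2* at 49.8 against 12.3, *Tnc* at 23.7 against 56 and *Dcn*, a matrix gene of fibroblasts, at 83.1 or 0.232 times that of the others. In apex cells with as many *Foxl1* counts, *Pdgfra* was at 1126, *Wnt5a* at 399.9 and *Myh11* at 3.81. These medians are descriptions over cells, which are not replicates.

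In cluster 1, the 37 cells with at least 10 *Foxl1* counts comprised 21 PdgfrbGFP cells (8.9% of that line's), 14 Acta2GFP cells (8.05%), 1 PdgfraGFP cell (1.54%) and 1 cell of Cspg4dsRED. Their medians were 158.2 for the Hedgehog receptor *Ptch1* and 37.7 for *Foxf1*, against 51.2 and 8.4 in the other cells of the cluster. *Wnt5a* (0.706 and 1.32) was not at the apex level in either, and *Cd34*, a gene of fibroblasts away from the apex, was at 659.2 and 539.8. The apex gene *Tnc* was 2.25 times as high in the Foxl1-high cells (169.9 in the others), and *Pdgfra* was at 65.9 against 99.1.

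At the apex, *Foxl1* and the FOXF genes were found together about as often as their separate shares give. Of the apex cells, 86 had at least 10 counts of *Foxl1* and 68 of these as many of *Foxf1*, so 79.1% of Foxl1-high cells had *Foxf1* against 79.4% of all apex cells. For *Foxf2* the shares were 39.5% and 38.9%. In interstitial SMC 14 of 19 Foxl1-high cells had *Foxf1*, 73.7% against 66.1% of all, and 47.4% against 42.9% had *Foxf2*. In cluster 1 the shares among Foxl1-high cells were larger, 51.4% against 41.8% for *Foxf1* and 37.8% against 26.7% for *Foxf2*, and in the 9 such cells of cluster 6 they were 55.6% against 53.3% and 22.2% against 33.3%. None of these differences was tested.

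Of the FOXP and FOXO members, *Foxp1* and *Foxo3* varied least between clusters. *Foxp1*, on chromosome 6 from 98925338 to 99522721, had cluster means between 38.9 ± 0.956 (apex, SD, n = 3 lines) and 73.3 ± 20.8 (cluster 7, SD, n = 3 lines), and neighbouring clusters in this order overlapped, except that the interstitial SMC value (54.7) lay above every line of cluster 1 (34.6 to 51.8). *Foxp2*, which was 26.6 to 71 in cluster 7, 13.4 to 71.8 in cluster 5 and 17.5 to 39.4 in cluster 1, fell to 1.74 and 3.09 in cluster 6, with no overlap between cluster 1 and cluster 6. At least 10 *Foxp2* counts were found in 45.7% of cluster 7, 37.4% of cluster 5 and 14.1% of cluster 1 cells, and in 0 cells of cluster 6 and of the apex (95% intervals up to 7.87% and 2.78%).

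*Foxo1* was highest in cluster 5 (41.6 to 68.7), then in clusters 7 (27.5 to 50.3) and 1 (17.1 to 41), which overlapped with each other. Every line of cluster 1 was above those of cluster 6 (4.38 and 15.9). Cluster 6, the apex and the 3 mural clusters had means of 6.05 to 10.1, and neighbours in this order overlapped. *Foxo3*, on chromosome 10 from 42181841 to 42276755, had means of 16.1 (apex) to 41.7 (pericytes) with SDs of 7.25 to 27, and its ranges overlapped except that the 3 apex lines (7.92 to 21.6) lay below both pericyte lines (22.6 and 60.8) and the interstitial SMC value (32.7). No member of the FOXO pair passed a test within the mural cells.

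A list of 16 FOXO target genes was read beside these levels. In fibroblasts against mural cells 2 passed, both lower, *Fbxo32* (-2.93, edgeR adjusted p = 0.019), a ubiquitin ligase of muscle atrophy, and *Sod2* (-1.14, adjusted p = 0.035), the mitochondrial superoxide dismutase. Of all genes 3.36% were lower there, and the list's median was -0.73 against -0.03 for all genes. At the apex 1 passed, the cell cycle inhibitor *Cdkn1a*, which was higher (2.50, adjusted p = 0.0078), with a list median of -0.18, and 1 of 16 is a share near that of all genes (7.26%). In the single interstitial sum against vascular SMC *Cdkn1a* was lower (log2 fold change -6.17). In cluster 6 against the apex 1 of 16 passed, *Klf2*, which was lower (-4.34, edgeR adjusted p = 0.0043). Of all genes 1.52% were lower in that comparison.

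The Hedgehog pathway was followed with 14 genes. At the apex 7.26% of all genes passed, with a median of 0.00. Of 11 tested there, the receptor *Ptch1* rose (1.83, edgeR adjusted p = 0.027), from 83.8 to 221.2. The co-receptor *Cdon* (-5.40, adjusted p = 0.033) fell from 2.99 to 0.0775, low in both groups. The antagonist *Hhip* (-3.24, adjusted p = 0.016) fell from 35.8 to 3.4 and the effector *Gli2* (-1.30, adjusted p = 0.043) from 70.6 to 21.8. The list median was -1. In the single interstitial sum, of 52 Acta2GFP cells, *Hhip* (log2 fold change 10.79) and *Ptch1* (4.41) were among the genes that were higher than in vascular SMC. The list median there was 2.42 over 12 tested, against -0.31 for all genes. In fibroblasts against mural cells 0 of 12 passed, of which 2 had an unadjusted p under 0.05 and DESeq2 called 1, a count near the share of all genes (6.57%). *Ptch1* means were 38.7, 64.1, 148.3, 248.9 and 221.2 in clusters 7, 5, 1, 6 and 2, and 33.8, 18.9 and 309.8 in pericytes, vascular SMC and interstitial SMC, so the 3 clusters with the highest means of *Foxf1* also had the highest of *Ptch1*. *Gli1*, a transcriptional target and effector of the pathway, had means of 22.2 (apex) to 38.4 in the fibroblast clusters, 28.7 in interstitial SMC, 13 in pericytes and 3.89 in vascular SMC. Over the 21 sums of a cluster in a line, Pearson's r of *Foxf1* was 0.470 with *Ptch1*, -0.310 with *Gli1* and -0.313 with *Hhip*.

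**Figure D4:**
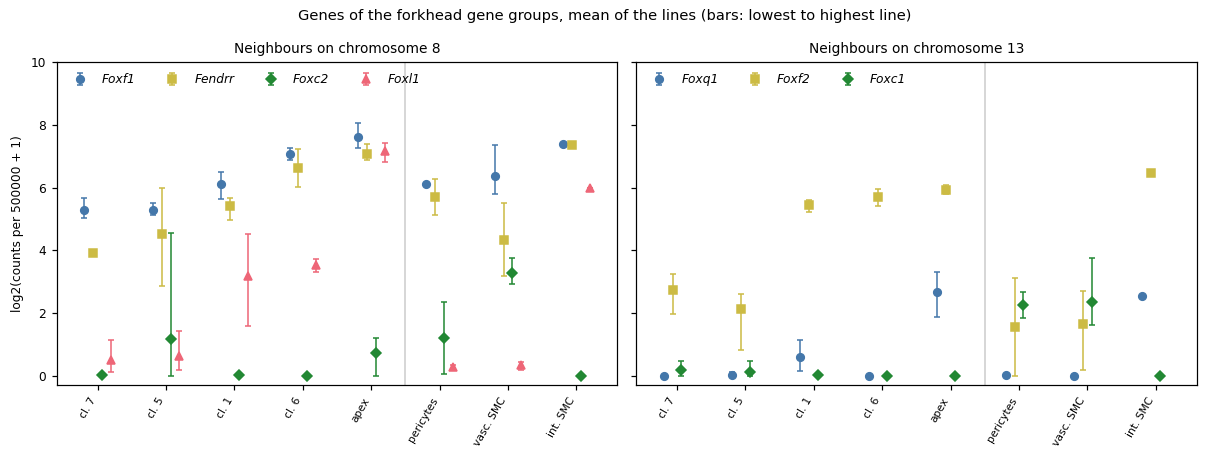
Levels (vertical axis, log2 of counts per 500000 plus 1) of neighbouring genes on chromosomes 8 and 13 in the 8 clusters. Points are means of the reporter lines on this scale and bars run from the lowest to the highest line. *Foxc2* lies between *Foxf1* and *Foxl1* but is low at the apex, where both are high, and *Foxc1* is at 0 in interstitial SMC, where *Foxf2* is at 87.6 counts per 500000.

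Members that lie side by side did not share their levels. On chromosome 8 *Foxf1*, *Foxc2* and *Foxl1* follow each other on the plus strand with gaps of 28 kb and 9.04 kb, yet *Foxc2* was at 0.756 at the apex, where both flanking genes peaked. On chromosome 13 *Foxf2* and *Foxc1* are 175.2 kb apart, and *Foxc1* was at 0 in apex fibroblasts and interstitial SMC, where *Foxf2* was highest. *Fendrr*, a long noncoding RNA that starts 1.27 kb from *Foxf1* on the other strand, was also highest at the apex (135.3) and in interstitial SMC (163.1) and rose at the apex by 2.54 ± 0.38 (edgeR adjusted p = 0.0048). Cluster 6 had a *Fendrr* mean of 106.2, and its lines overlapped with those of the apex. *Fendrr* was at 13.9, 28.8 and 42.6 in clusters 7, 5 and 1, and at 54.7 in pericytes and 24 in vascular SMC, the reverse of the order of the *Foxf1* means there.

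Over the 21 sums of a cluster in a line, Pearson's r of log2(level + 1) was 0.778 between *Foxl1* and *Foxf2*, 0.678 between *Foxl1* and *Foxf1*, 0.758 between *Foxc1* and *Foxs1*, 0.703 between *Foxp2* and *Foxo1* and -0.765 between *Foxf1* and *Foxp2*. These are descriptions, since the sums share lines, plates and depth. Among 21739 genes those most like *Foxl1* were ENSMUSG00000107298, which has no symbol in the annotation (r = 0.987), *Eva1a* (0.960) and *Nrg1* (0.939). Those most like *Foxf2* were *Adamdec1* (0.950), *Gm27516* (0.918) and *Syt13* (0.910), and those most like *Foxf1* were *Schip1* (0.823), *Gm27530* (0.809) and *Casq2* (0.804). *Foxs1* was most like *Slc11a1* (0.913), *Rgs7bp* (0.912) and *Ndufa4l2* (0.911), *Foxp2* most like *Dapk1* (0.915), *Col8a1* (0.914) and *Gm16083* (0.907), and *Foxo1* most like *Arap1* (0.902), *Glt8d2* (0.889) and *C3* (0.884). *Foxp1* was most like *Gm49348* (0.822), *Aasdhppt* (0.792) and *Abhd11os* (0.783), and *Foxo3* most like *D10Jhu81e* (0.837), *Ambra1* (0.827) and *Qrich1* (0.815). *Gm27530*, *Gm27516* and *Gm49348* are annotated miRNA genes that share 4.06%, 4.15% and 0.982% of the exon bases of the member they resemble, so reads of the member can be counted for them.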

How the data were processed

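Single cells sorted into 384-well plates were sequenced by the authors as single 50-base reads, and per the methods the reads were trimmed, aligned to GRCm38 with TopHat2 and Bowtie and counted per gene with featureCounts. The authors deposited a table of raw counts per gene and cell, without molecular identifiers, and an annotation with the cluster, reporter line and plate of each cell. The files hold 1646 cells in 9 plates, 46517 genes (46005 with a symbol in GENCODE vM21) and 92 spike-in controls, whose 1.36% of counts were left out, and 0 columns stayed unused. Cell types are the authors' annotation, and no doublet caller was run because potential doublets had been removed. Of genes lying within another gene's exons and hosted by highly counted genes, 97.9% of 187 on the same strand and 98.4% of 63 on the opposite strand had counts, so overlapping genes could not be told apart.

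Raw counts were summed per line and class or cluster (at least 10 cells) and tested with edgeR 4.0.16 in R 4.3.3 (TMM, filterByExpr, quasi-likelihood test, Benjamini-Hochberg over all genes tested, threshold 0.05). DESeq2 1.42.0 and limma 3.58.1 (log2 of the mean level plus 1), plates in place of lines, no filter, sums of at least 3 cells, the line as a block, and leaving out a plate or each line were alternatives. Levels were averaged in Python 3.11.15 with numpy 2.4.6 and pandas 2.3.3. Shares of cells have 95% Clopper-Pearson intervals, which together with limits for a count of 0 (3 counts) cover counting error only, since PCR copies are counted. For thinning to 50000 counts, 11 cells were too shallow. Labels name no mouse, so p-values measure the spread between lines. Deviations from the group means correlated within every line between fibroblasts and mural cells (r of 0.152 to 0.175). They also did between clusters 7 and 1 (0.125 to 0.175). The main fits left this pairing out, and only the alternative with the line as a block used it. All 10 members are named, and of the pathway lists those genes that passed the test, except that some results and sequences are not reported here. The members and lists were chosen with earlier results of these data known. The fitting scripts were tested on data with known changes.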

Additional observations from a re-analysis of the deposited data

Results flagged for a closer look

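Dixon's test set the lowest or highest line against the others in 30 sets of 4 lines, and in 5 a line stood apart. The sets overlap, since cluster 5 is also part of clusters 1, 5 and 7 together and of all fibroblasts. The count can therefore not be set against a chance rate of about 1 in 20. Of the 5 values, 4 concern Cspg4dsRED, the line with the fewest cells. *Foxf2* in cluster 5 was lower there, at 0.762 counts per 500000 against 4.57 to 5.13 in the other lines. *Foxc2* was higher there, at 22.3 in cluster 5, 11.2 in clusters 1, 5 and 7 together and 10.4 in all fibroblasts, and 2 of the 13 cluster 5 cells of the line held the counts. *Foxc1* in cluster 5 was higher in PdgfrbGFP, at 0.394 against at most 0.0377. Whether well position or depth moved with these values was not tested.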

How the results depend on the processing

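Of the 10 calls of members, 10 held with DESeq2, with no filter and with sums of at least 3 cells, and all 5 at the apex held against clusters 1, 5, 6 and 7. With plates 8 of 9 held (*Foxo1* at the apex was lost), with limma 9 (*Foxc1* was lost) and without plate 075s 9 (*Foxf2* at the apex was lost, adjusted p = 0.056). None of the 8 that could be fitted held without Acta2GFP, 8 of 10 did without Cspg4dsRED, 4 of 8 without PdgfraGFP and 6 of 10 without PdgfrbGFP. Leaving out a line gave 0 to 1 members in fibroblasts against mural cells (from 3), 0 to 5 at the apex (from 5), 0 to 1 in cluster 7 against cluster 1 (from 0), and 2 to 4 in interstitial against vascular SMC (from 2), the last not run without Acta2GFP, the only line with enough interstitial cells.

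With the line as a block 1 member passed in fibroblasts against mural cells, 3 at the apex, 2 in cluster 7 against cluster 1 and 1 in interstitial against vascular SMC (*Foxl1* at 8.14 did not). The block moved no other call of a member. At the apex r was positive in all 3 lines (0.0965, 0.0851 and 0.115), though lower than between fibroblasts and mural cells. Clusters 6 and 2 (0.0415 and 0.0948) and pericytes and vascular SMC (0.157 and 0.15) had fewer than 3 pairs.

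In cluster 7 against cluster 1, 2 members passed with DESeq2 and with plates, and 1 with no filter, with sums of at least 3 cells, with limma and without plate 075s. In cluster 6 against the apex 2 passed with DESeq2 and 1 with limma, and in interstitial against vascular SMC 4 passed with DESeq2. Direction turned for *Foxs1* in pericytes against vascular SMC (1.34 with sums of at least 3 cells, 0.15 with limma) and in fibroblasts against mural cells for *Foxf2* (-0.01 without Cspg4dsRED, and up to 2.83 without another line) and *Foxp1* (0.03 without PdgfrbGFP, and down to -0.42). The causes were not tested.

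Of all genes tested, 6.57% passed in fibroblasts against mural cells, 15.6% with DESeq2, 16.1% with plates, 3.08% with the block and 1.81% to 5.81% with a line left out. At the apex 7.26% passed, 15.4% with DESeq2, 12.1% with plates, 10.9% with limma and 1.18% to 7.6% with a line left out. In cluster 7 against cluster 1 the shares were 0.909%, 4.12% with DESeq2, 3.15% with plates, 2.36% with limma, 1.46% with the block and 0.0748% to 1.08% with a line left out. In cluster 6 against the apex they were 2.1%, 12%, 4.28%, 5.25%, 3.08% and 0.125% to 3.49%, and 1.5% with sums of at least 3 cells. In pericytes against vascular SMC they were 0.668%, 5.96% with DESeq2, 1.85% with no filter, 2.18% with plates, 1.04% with the block, 0% with limma and 0.3% to 2.44% with a line left out. In interstitial against vascular SMC they were 1.04%, 5.92%, 1.84%, 3.49%, 0.784%, 1.89% and 2.55% to 4.23%. Averaging levels over cells in place of lines moved 11 of 80 by more than the spread between lines, and thinning moved 82 of 100 shares outside their intervals.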

Other observations

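Of the other 34 forkhead genes of the table, 26 had at least 1 count in the cells, and 0 passed in any of the 6 comparisons, in which 11 to 15 were tested, 0 to 5 had an unadjusted p under 0.05 in edgeR and DESeq2 called 0 to 2. Of all genes 0.668% to 7.26% passed in these comparisons, so 0 calls among so few genes is near the background. *Foxn3*, a repressor of the cell cycle checkpoint response, had the most counts and cluster means of 21.4 to 55.8 counts per 500000. *Foxj3* had means of 6.22 in interstitial SMC to 34.1 in vascular SMC, and *Foxk1* of 3.71 in interstitial SMC to 30.5 in pericytes, where its lines stood at 3.08 and 57.9. *Foxq1*, which lies 64.8 kb from *Foxf2* on chromosome 13, had 5.83 ± 3.10 (SD, n = 3 lines) at the apex and 4.81 in interstitial SMC, 0.579 in cluster 1 and at most 0.0247 in the other clusters. Its difference at the apex did not pass (log2 fold change 4.26 ± 1.31, edgeR adjusted p = 0.087), although it was higher in 3 of 3 lines without overlap.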
